A study of Mus musculus with 10 samples.

Results

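The mouse Toll-like receptors Tlr1 to Tlr9 and the co-receptor gene Cd14 were examined in RNA sequencing of the uterus. They are 10 of the 29268 genes in the count table, taken by their gene names, and the choice of this family was made with earlier results of these data known. All 10 had enough reads to be tested. The libraries came from 5 HSD17B1TG and 5 WT female mice aged 4 months, each mouse giving 1 library, and the comparison asks what the transgene does to uterine transcripts. HSD17B1TG mice carry the cDNA of human HSD17B1, a 17beta-hydroxysteroid dehydrogenase that converts estrone to the more active estradiol, under a chicken beta-actin promoter with a CMV enhancer, so that the enzyme is made throughout the body. Both groups are on the FVB/N background. Genotype and estrous cycle phase cannot be told apart, since the WT libraries mix phases of a cycle that the transgenic line lacks. Expression of the transgene was not analysed here. The transgenic mice are called TG1 to TG5 and the controls WT1 to WT5, following their sample records, and the numbers do not pair a TG mouse with a WT mouse.

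Toll-like receptors are membrane proteins that bind molecules of microbes or of damaged cells and start inflammatory signaling. TLR1, TLR2, TLR4, TLR5 and TLR6 sit mainly at the cell surface, where TLR2 pairs with TLR1 or TLR6 to bind lipoproteins, TLR4 with its partner MD-2 binds lipopolysaccharide, and TLR5 binds flagellin. TLR3, TLR7, TLR8 and TLR9 sit in endosomes and bind nucleic acids, and CD14 passes lipopolysaccharide and other ligands on to the receptors. In the uterus these receptors are known from epithelial cells, which face the lumen, and from leucocytes of the stroma.

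The genes lie on 8 chromosomes of the GRCm38 build. Tlr2 lies on the minus strand at chr3:83836272-83841767 and Tlr5 on the plus strand at chr1:182954788-182976044. Tlr1 at chr5:64924679-64933563 and Tlr6 at chr5:64952031-64960097 are neighbors on the minus strand, with 18467 bases between them. Of the 100-base windows in the longest annotated transcript of Tlr1, 8.85% were identical to a window of a Tlr6 transcript. Reads from those stretches could be assigned to either gene. Tlr8 at chrX:167242696-167264329 and Tlr7 at chrX:167304929-167330558 form a second pair of neighbors, 40599 bases apart, and shared no window. Tlr3 at chr8:45395665-45411080 overlaps the antisense gene Gm45542, whose reads cannot be told apart from those of Tlr3 if the counting ignored strand. Tlr4 lies at chr4:66827584-66930284 and Tlr9 at chr9:106222598-106226883.

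Promoter sequence is shown for Tlr2 and Tlr5, the receptors whose transcripts differed between the groups below the adjusted p threshold. RefSeq promoters of 300 bases (250 before and 50 after the annotated start, GRCm38.p6) were found for 7 of the 10 genes and not for Tlr4, Tlr7 and Cd14. Tlr1 and Tlr6 had 2 promoters each, giving 9 windows in all. Each was searched on both strands for the κB motif, which NF-κB binds. The stretches printed here end at the base before the first annotated exon and read 5′ to 3′ on the strand of the gene. Capitals mark the κB match.
Tlr2, chr3:83841768-83841858, minus strand: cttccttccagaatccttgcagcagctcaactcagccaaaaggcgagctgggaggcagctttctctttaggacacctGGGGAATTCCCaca
Tlr5, chr1:182954538-182954787, plus strand: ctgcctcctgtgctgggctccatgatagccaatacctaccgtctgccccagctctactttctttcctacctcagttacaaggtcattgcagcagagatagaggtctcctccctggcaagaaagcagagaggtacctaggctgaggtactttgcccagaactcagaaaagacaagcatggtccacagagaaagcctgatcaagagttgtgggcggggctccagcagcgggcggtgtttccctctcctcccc
The Tlr2 stretch held a pair of overlapping κB matches that together make the 11 capital letters, starting 173 and 172 bases before the RefSeq start. A further match in the Tlr2 window began 8 bases before that start, within an annotated exon. Tlr3 had 1 match, 211 bases before its RefSeq start and likewise within an annotated exon. The remaining 5 genes with a promoter, Tlr5 among them, held no κB match. Thus 2 of the 9 windows held a κB match, and 4.51% of 32851 promoters of this length held at least 1. The PU.1 motif GAGGAAGT was found in 1 of the 2 Tlr1 promoters, in that of Tlr9 and in 3.20% of all promoters. The interferon-stimulated response element GAAANNGAAA was found in 1 of the 2 Tlr6 promoters (3.44% of all promoters) and the AP-1 motif TGANTCA in that of Tlr9 (7.81%). The estrogen response element GGTCANNNTGACC was found in none of the members' promoters and in 0.0700% of all promoters.

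Tlr2 rose in the HSD17B1TG uterus. FPKM, which is the read count scaled by the length of the gene and by a size factor of the library, was 9.45, 15.7, 13.6, 13.8 and 22.7 for Tlr2 in TG1 to TG5. In WT1 to WT5 it was 6.67, 2.67, 2.82, 8.10 and 4.39. Each of the 5 HSD17B1TG mice lay above each WT mouse, with TG1 lowest and TG5 highest among the transgenic mice and WT4 highest among the controls. The mean was 15.1 ± 4.84 (SD, n = 5) in HSD17B1TG and 4.93 ± 2.39 (SD, n = 5) in WT. In edgeR's quasi-likelihood test the log2 fold change was 1.61 ± 0.34 (SE), with an adjusted p of 0.0306 (Benjamini-Hochberg over the 16993 genes tested). Tlr2 was the only one of the 10 genes to be called, where a call needs an adjusted p under 0.05, more than a 2-fold difference and at least 1 group with a mean FPKM above 1. Over all genes tested, 2.16% were called as higher and 2.08% as lower in HSD17B1TG. The call was lost, at adjusted p from 0.0517 to 0.0787, when TG2, TG4, TG5, WT1, WT2, WT3 or WT5 was left out, while the log2 fold change stayed between 1.42 and 1.86 over all 10 such fits.

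**Figure D1:**
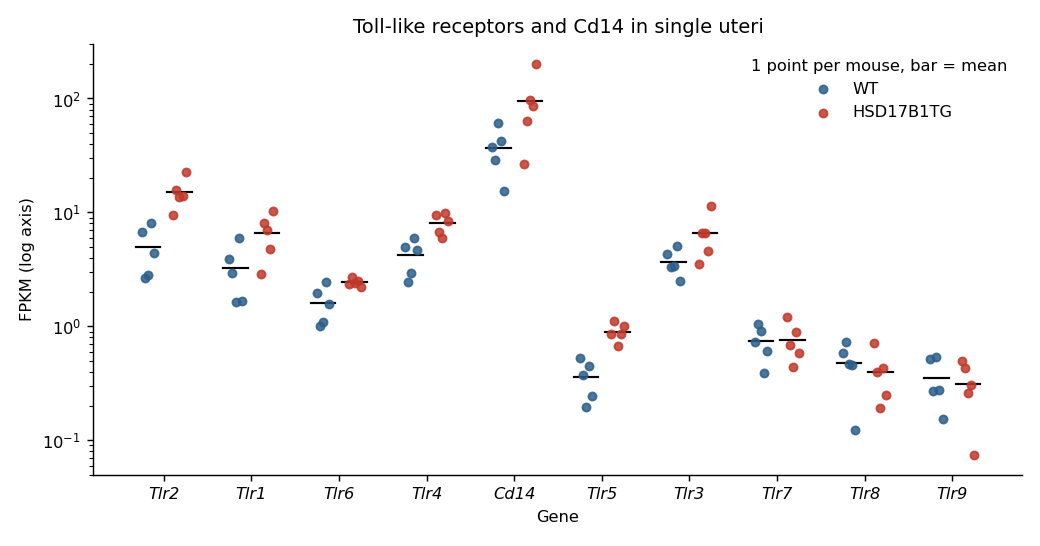
FPKM of the 10 genes on a log axis, with 1 point per mouse (WT left and blue, HSD17B1TG right and red) and a bar at the group mean. The groups do not overlap for Tlr2 and Tlr5, Cd14 is the most abundant gene in both groups, and Tlr7, Tlr8 and Tlr9 overlap widely.

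Both partners of TLR2 had higher mean levels in HSD17B1TG but did not pass the test. Tlr1 FPKM was 2.89, 8.13, 7.07, 4.82 and 10.4 in TG1 to TG5 and 3.91, 2.94, 1.63, 5.96 and 1.68 in WT1 to WT5. TG1 and TG4 lay within the WT range, and 3 of the 5 HSD17B1TG mice lay above all WT mice. The log2 fold change of Tlr1 was 1.04 ± 0.43 (SE, adjusted p = 0.151, edgeR). Tlr6 FPKM was the most even over the transgenic mice, at 2.36, 2.73, 2.38, 2.50 and 2.21. In WT1 to WT5 the Tlr6 values were 1.96, 1.00, 1.08, 2.46 and 1.57, and WT4 fell within the HSD17B1TG range. The log2 fold change of Tlr6 was 0.59 ± 0.27 (SE, adjusted p = 0.189, edgeR).

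Tlr2 moved more than Tlr6 within the same mouse. The log2 ratio of Tlr2 to Tlr6, computed on FPKM + 0.1, was 1.96, 2.48, 2.47, 2.42 and 3.31 in TG1 to TG5. It was 1.71, 1.33, 1.30, 1.68 and 1.43 in the 5 WT mice, so that no mouse of one group entered the range of the other. The difference was 1.04 ± 0.23 (SE, two-sided exact permutation test, p = 0.00794, which is the smallest p this design can give, adjusted p = 0.0476 over the 6 pairs of genes compared). Without WT1, WT2, WT3 or WT4 the adjusted p was 0.0952. The log2 ratio of Tlr2 to Tlr1 differed by 0.61 ± 0.28 (SE, exact permutation p = 0.0794, adjusted p = 0.238), with overlapping groups. It fell below the threshold, at an adjusted p of 0.0476 in the same exact test, when WT5 was left out and the difference was 0.78.

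**Figure D2:**
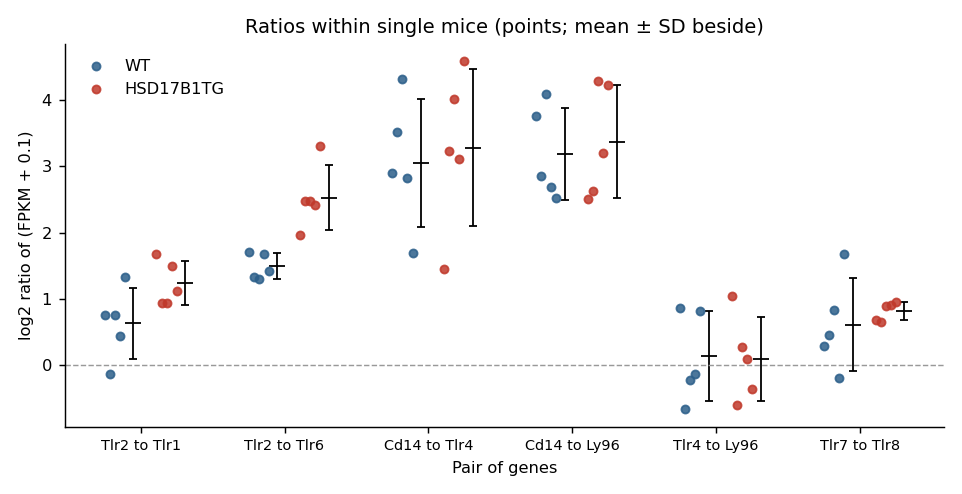
Log2 ratio of the FPKM + 0.1 of a pair of genes within each mouse, with 1 point per mouse and the mean ± SD of each group (n = 5) beside the points. Only the ratio of Tlr2 to Tlr6 separates the groups, with every HSD17B1TG mouse at 1.96 or more and every WT mouse at 1.71 or less.

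Tlr5 was also higher in HSD17B1TG in every mouse, but at a low level. Its FPKM was 0.851, 1.10, 0.677, 0.855 and 1.01 in TG1 to TG5 and 0.526, 0.374, 0.194, 0.445 and 0.245 in WT1 to WT5. The groups did not overlap, and the counts behind the values were 61 to 92 reads per mouse in HSD17B1TG and 15 to 62 in WT. Tlr5 had a log2 fold change of 1.32 ± 0.32 (SE, adjusted p = 0.0396, edgeR), and the gene was not called because its mean FPKM of 0.899 was under 1. Tlr5 passed the adjusted p threshold in 3 of 10 fits with a mouse removed, those without TG1, TG3 or WT4. Without the filter on low counts its adjusted p was 0.0697 (edgeR). Tlr2 and Tlr5 were thus 2 of 10 genes below an adjusted p of 0.05 and higher, against 3.34% of all genes tested (and 2.81% lower). They were also 2 of 10 genes whose groups did not overlap with HSD17B1TG higher, against 4.04% of all genes.

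The lipopolysaccharide receptor Tlr4 stood just outside the threshold. Its FPKM was 9.56, 6.77, 5.92, 9.91 and 8.37 in TG1 to TG5 and 5.00, 2.43, 2.96, 5.94 and 4.64 in WT1 to WT5. TG3 was the single transgenic mouse that did not lie above all WT mice, by the small margin to WT4. Tlr4 had a log2 fold change of 0.95 ± 0.25 (SE, 95% interval 0.39 to 1.51, adjusted p = 0.0514, edgeR). Tlr4 was called without TG3 (adjusted p = 0.0437, edgeR) and without WT4 (0.0215). With all mice it was below an adjusted p of 0.05 in DESeq2 (0.0124) and in limma on log2 of FPKM + 1 (0.0472) or FPKM + 0.1 (0.0479). In the other 8 fits with a mouse removed its adjusted p was 0.0611 to 0.122 (edgeR), and it was 0.0627 with upper-quartile scaling and 0.0761 without the filter on low counts.

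Cd14 was the most abundant of the 10 transcripts in both groups, and in HSD17B1TG it was also the most variable. Its FPKM was 26.3, 64.0, 97.1, 86.1 and 202 in TG1 to TG5 and 37.7, 29.0, 60.5, 42.5 and 15.3 in WT1 to WT5. All transgenic mice but TG1 lay above all WT mice, and TG1 was lower than 4 of the 5 WT mice. The mean of 95.2 ± 65.8 (SD, n = 5) in HSD17B1TG was 2.57 times the WT mean of 37.0 ± 16.7 (SD, n = 5). Cd14 had a log2 fold change of 1.36 ± 0.50 (SE, adjusted p = 0.114, edgeR). Without TG1 it was 1.60 and Cd14 was called (adjusted p = 0.0382, edgeR), and DESeq2 called it with all mice (adjusted p = 0.0476). Without TG5 the log2 fold change was 0.88 (adjusted p = 0.266, edgeR).

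Cd14, Tlr4 and Ly96, which encodes MD-2, had no measurable difference in their proportions. Ly96 FPKM was 3.83 ± 1.59 (SD, n = 5) in WT and 7.96 ± 3.0 in the transgenic uterus. The log2 ratio of Cd14 to Tlr4 differed between groups by 0.23 ± 0.68 (SE, exact permutation test, adjusted p = 0.895) and that of Cd14 to Ly96 by 0.18 ± 0.49 (SE, adjusted p = 0.895, same exact test). The ratio of Tlr4 to Ly96 differed by -0.04 ± 0.42 (SE, exact permutation test, adjusted p = 0.937). Each of these 3 differences changed sign when single mice were left out.

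Among the endosomal receptors, Tlr3 alone had a higher level in most transgenic mice. Tlr3, the receptor of double-stranded RNA, had an FPKM of 3.53, 6.56, 6.56, 4.59 and 11.5 in TG1 to TG5 and 4.28, 3.30, 3.41, 5.02 and 2.49 in WT1 to WT5. TG1 and TG4 lay within the WT range. Its log2 fold change was 0.82 ± 0.31 (SE, adjusted p = 0.124, edgeR). It was 0.98 with an adjusted p of 0.0495 (edgeR) without TG1, and 0.52 (adjusted p = 0.266) without TG5.

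Tlr7 and Tlr8, which bind single-stranded RNA, and Tlr9, which binds unmethylated CpG DNA, did not differ measurably. Tlr7 FPKM ran from 0.443 to 1.21 in HSD17B1TG (median 0.690) and from 0.391 to 1.04 in WT (median 0.727). The log2 fold change of Tlr7 was 0.05 (95% interval -0.74 to 0.84, adjusted p = 0.950, edgeR), and it turned to -0.03 with upper-quartile scaling. Tlr8 FPKM ran from 0.193 to 0.718 in HSD17B1TG and from 0.123 to 0.734 in WT, with a log2 fold change of -0.24 (95% interval -1.32 to 0.83, adjusted p = 0.795, edgeR). Tlr9 was the scarcest member in both groups and rested on 4 to 32 reads per mouse in HSD17B1TG and 11 to 44 in WT. Its log2 fold change was -0.17 (95% interval -1.27 to 0.94, adjusted p = 0.863, edgeR) and turned positive without TG5 or WT3. Differences within these intervals were not excluded at this depth and spread. The log2 ratio of the neighbors Tlr7 and Tlr8 differed by 0.20 ± 0.32 (SE, exact permutation test, adjusted p = 0.895).

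**Figure D3:**
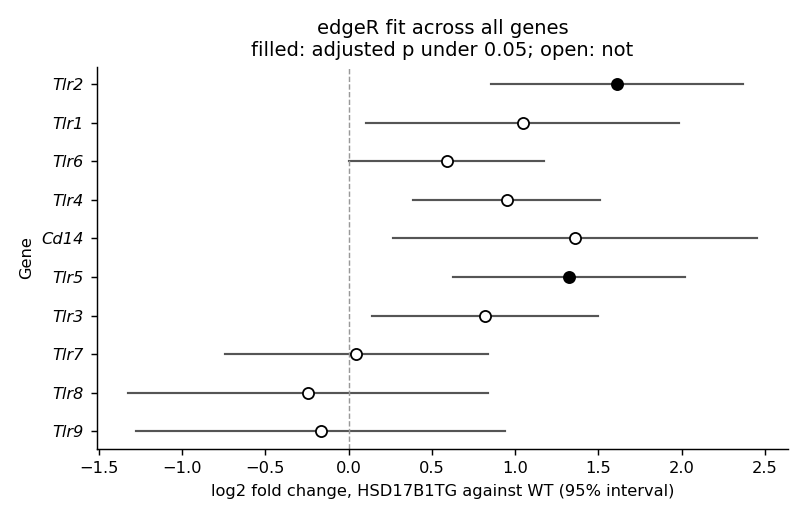
Log2 fold change of HSD17B1TG against WT from edgeR for the 10 genes, with 95% intervals as lines. Filled points have an adjusted p under 0.05, which holds for Tlr2 (1.61) and Tlr5 (1.32), and the intervals of Tlr7, Tlr8 and Tlr9 span 0 on both sides.

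Of the 10 genes, 8 had a higher fitted level in HSD17B1TG (with Tlr7 turning to lower under upper-quartile scaling) and the median log2 fold change was 0.88, whereas 50.2% of all genes tested were higher and their median was 0.00. An unadjusted p under 0.05 with a higher level was found for 7 of the 10 genes and for 14.7% of all genes. The 5 surface receptors were all higher, each with an unadjusted p under 0.05, and had a median of 1.04. The 4 endosomal receptors had a median of -0.06 with 2 higher and 2 lower. These genes were not chosen independently of earlier results, so the counts are given as a description.

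The order of the levels in FPKM was Cd14, Tlr2, Tlr4, Tlr1, Tlr3, Tlr6, Tlr5, Tlr7, Tlr8 and Tlr9 in HSD17B1TG. In WT it was Cd14, Tlr2, Tlr4, Tlr3, Tlr1, Tlr6, Tlr7, Tlr8, Tlr5 and Tlr9. Several neighbors in these orders were not separated in single mice. In WT, Tlr2 lay above Tlr4 in 3 of 5 mice and Tlr4 above Tlr3 in 3 of 5. In HSD17B1TG, Tlr4 lay above Tlr1 in 2 of 5 mice and Tlr1 above Tlr3 in 3 of 5, whereas Tlr2 lay above Tlr4 in 4 of 5. By its mean, Tlr5 stood between Tlr6 and Tlr7 in HSD17B1TG, where it lay above Tlr7 in 3 of 5 mice. In WT the mean of Tlr5 stood between those of Tlr8 and Tlr9, at 0.357 against 0.351 for Tlr9, and Tlr5 lay above Tlr9 in 4 of 5 mice. Summed over Tlr1 to Tlr9, FPKM was 41.2 ± 9.77 (SD, n = 5) in HSD17B1TG, from 31.1 to 57.1, and 19.6 ± 6.68 in WT, with a highest value of 29.1. Tlr2 made up 36.0% ± 3.43 (SD, n = 5) of that sum in HSD17B1TG and 24.3% ± 4.75 in WT, and the highest WT mouse at 27.9% lay below the lowest HSD17B1TG mouse at 30.4%.

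The mice did not stand in the same order for all members. TG1 had the lowest and TG5 the highest level among transgenic mice for Tlr1, Tlr2, Tlr3 and Cd14. For Tlr7, Tlr8 and Tlr9, TG1 had instead the highest level of the transgenic mice. Among WT mice, WT4 was highest for Tlr1, Tlr2, Tlr3, Tlr4 and Tlr6 but lowest for Tlr7.

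The mice also differed in markers of cell types, and in bulk uterine RNA more cells of a type and more RNA per cell cannot be told apart. Of 9 epithelial markers such as Epcam and Cdh1, 8 were higher, 6 of them with an unadjusted p under 0.05 and none called, and their median log2 fold change was 1.24. Their summed FPKM was 691 in TG1, 1875 to 3168 in TG2 to TG5 and 499 to 1689 in WT. TG1 was the lowest transgenic mouse and WT4 the highest WT mouse for these epithelial markers, as both were for Tlr1, Tlr2 and Tlr3. Smooth muscle markers were highest in the same mice, with a summed FPKM of 7325 in TG1 and 5753 in WT4 against 405 to 3069 in the other 8 mice. All 7 smooth muscle markers had a higher fitted level in HSD17B1TG, none with an unadjusted p under 0.05 (edgeR, median log2 fold change 0.69). The 8 stroma markers were all lower, 6 of them with an unadjusted p under 0.05 (edgeR, median log2 fold change -1.68). Of the stroma markers, 4 were called as lower (Pdgfra, Hand2, Hoxa10 and Hoxa11), and the list summed to 405 to 1387 in HSD17B1TG and 1449 to 1969 in WT.

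Markers of leucocytes, which carry Tlr2, Tlr7, Tlr8, Tlr9 and Cd14 in many tissues, were compared in the same way. The summed FPKM of 8 genes shared by all leucocytes was 51.7 to 79.0 in HSD17B1TG and 44.3 to 85.8 in WT, and that of 11 macrophage and monocyte genes was 177 to 294 and 146 to 228, with 1 gene called as higher in each list (Laptm5 and Cd68). The other 7 genes of the leucocyte list were lower, 3 of them with an unadjusted p under 0.05 and none called, and the median log2 fold change of that list was -0.63. Of the macrophage and monocyte genes, 7 were higher and 4 lower, with a median of 0.14. The neutrophil list summed to 9.67 to 16.9 in HSD17B1TG and 0.864 to 5.61 in WT. All 4 neutrophil genes with enough reads to be tested were higher, 2 of them with an unadjusted p under 0.05 (S100a9 and Mmp9) and none called, and their median log2 fold change was 1.92. The neutrophil genes S100a8, Cxcr2, Camp, Ngp and Retnlg had too few reads for the test. Of these, the granule gene Camp and Retnlg had at most 3 reads in every mouse. A gene low in WT could reach the test through its HSD17B1TG reads alone, so the shared direction of the 4 tested genes is a description only. Dendritic cell markers summed to 4.27 to 6.33 and 3.71 to 9.48 in HSD17B1TG and WT, B and plasma cell markers to 8.33 to 21.4 and 5.29 to 29.8, and eosinophil markers to 0.185 to 0.362 and 0.0679 to 0.730. Of the 7 dendritic cell markers, 5 were lower and 2 higher, with a median log2 fold change of -0.38. Siglech was higher with an adjusted p under 0.05 (edgeR), and none of the 7 was called. Of the 6 tested markers of T and natural killer cells, 3 were called as lower (Ncr1, Eomes and Nkg7) and 1 was higher with an unadjusted p under 0.05, with sums of 2.29 to 5.70 in HSD17B1TG and 5.43 to 32.4 in WT. Of 6 endothelial markers, 5 were lower, 3 of them with an unadjusted p under 0.05 and none called, with a median log2 fold change of -0.94 and sums of 25.9 to 104 and 46.1 to 103. The adipocyte markers summed to 3.18 to 38.2 and 0.166 to 9.97. The uterine list summed to 135 to 208 in HSD17B1TG and 205 to 445 in WT, and the oviduct list to 78.6 to 244 and 73.6 to 151. The only called genes of the uterine list, Hoxa10 and Hoxa11, are also in the stroma list and were counted there. The part of these cell types in the levels of the receptors was not tested.

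**Figure D4:**
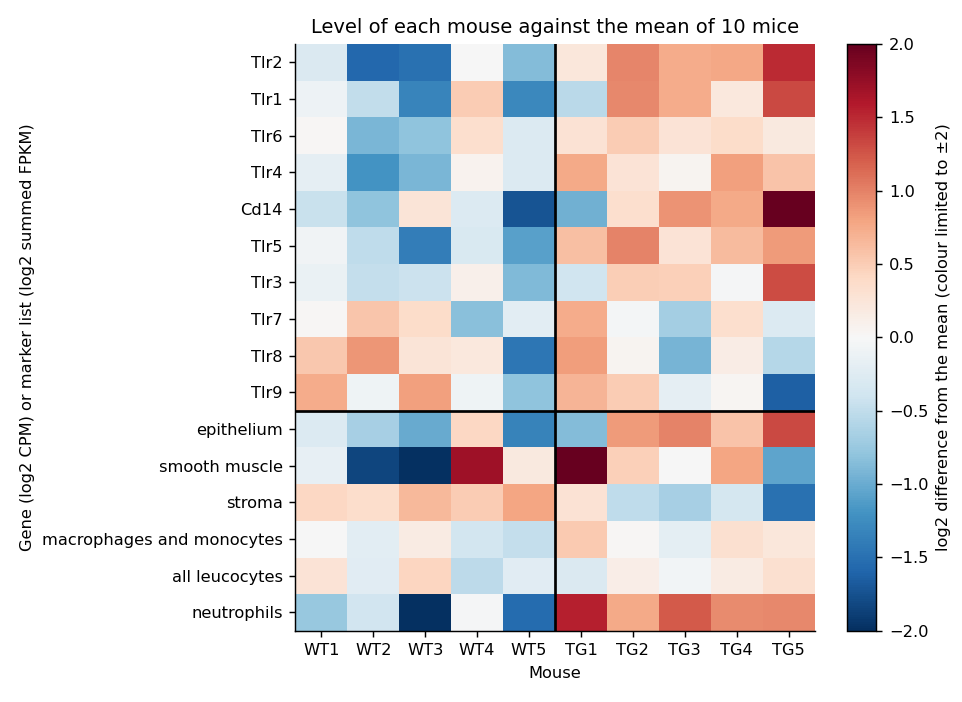
Log2 difference of each mouse from the mean of the 10 mice, for the 10 genes (log2 CPM, above the line) and for summed markers of cell types (log2 summed FPKM, below the line), in WT (left) and HSD17B1TG (right). Tlr1, Tlr2, Tlr3 and Cd14 are lowest in TG1 and highest in TG5 within the transgenic group, as are the epithelial markers and those of all leucocytes.

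The genes with the profile most like those of Tlr2 and Cd14 over the 10 mice were found by the mean absolute difference of log2 CPM, each gene centered on its own mean, among 12669 protein-coding genes with a mean FPKM over 1 in either group. For Tlr2 they were Stap2 (0.17), Smagp (0.18) and Bcar3 (0.19). Cd14 was followed less closely, by Tmem51 (0.25), Dcxr (0.28) and Smox (0.31). Among the members themselves, Tlr4 and Tlr6 were closest (0.26), followed by Tlr1 and Tlr3 (0.28). The points share libraries and the difference between the groups, so these values are a description only.

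The pathway around the receptors was read from 9 lists with 123 genes, of which 109 were tested. In all, 14 genes were called as higher and 1 as lower, where 2.16% and 2.08% of all genes tested were. A higher fitted level was found for 76 of the 109, against 50.2% of all genes, and the median log2 fold change was 0.25, against 0.00. Of the 6 co-receptors and ligand carriers none was called, and the smallest p belonged to Ly96 (log2 fold change 1.05, adjusted p = 0.0957, edgeR) and to Lbp, the lipopolysaccharide binding protein (-1.45, adjusted p = 0.137). Of 8 genes for chaperones and trafficking of endosomal receptors, 1 was called. It was Ctss, a protease that cleaves them, with an FPKM of 77.4 ± 31.2 (SD, n = 5) against 29.1 ± 10.1 in WT (adjusted p = 0.0351, edgeR). Unc93b1, which carries TLR3, TLR7, TLR8 and TLR9 to endosomes, was higher by 0.86 on the log2 scale (adjusted p = 0.0305, edgeR), under the fold needed for a call.

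Of the 6 TIR adaptors, which join the receptors to their kinases, none was called. Tirap had a log2 fold change of 0.86 (adjusted p = 0.106, edgeR) and Pik3ap1 one of -0.74 (adjusted p = 0.326). Of 18 kinases and ubiquitin ligases, Irak2 was called (log2 fold change 1.25, adjusted p = 0.0393, edgeR) and 16 had a higher fitted level. Of 15 transcription factors, 2 were called. Irf7, the factor through which TLR7 and TLR9 induce interferon, was at 14.6 to 92.9 FPKM in HSD17B1TG and 2.62 to 9.64 in WT (log2 fold change 3.31, adjusted p = 0.0177, edgeR). Nfkbiz, an inhibitor-like partner of NF-κB that TLR signals induce, had a log2 fold change of 1.38 (adjusted p = 0.0348, edgeR).

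Of 15 negative regulators, 3 were called as higher and none as lower. Tnip3, which binds the NF-κB inhibitor A20, was at 0.688 to 4.57 FPKM in HSD17B1TG and 0.0170 to 0.0754 in WT (log2 fold change 5.72, adjusted p = 0.00956, edgeR). Zc3h12a, a ribonuclease that degrades cytokine mRNA, had a log2 fold change of 1.98 (adjusted p = 0.0429, edgeR), and Trim30a one of 1.86 (adjusted p = 0.0279).

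Of 24 cytokines and effectors that TLR signals induce, 15 were tested, and 3 were called as higher. Il1a, at 7.85 ± 4.17 FPKM (SD, n = 5) in the transgenic uterus, rose from a WT level of 0.254 ± 0.134 (log2 fold change 4.93, adjusted p = 0.00956, edgeR). The granulocyte growth factor Csf3 (log2 fold change 2.69, adjusted p = 0.0345, edgeR) and the neutrophil chemokine Cxcl5 (3.19, adjusted p = 0.0494) also rose. Cxcl5 was at 14.9 FPKM in TG5 and at 0.605 to 3.33 in the other transgenic mice, and its call held in 3 of 10 fits with a mouse removed. Acod1, which makes itaconate in activated macrophages, was called as lower (-5.28, adjusted p = 0.0493, edgeR). Its WT level rested on WT3 at 24.7 FPKM, with the other WT mice at 0.222 to 1.91, and its call held in 1 of 10 fits with a mouse removed. Il6, Il12b, Il10, Cxcl2, Cxcl10, Ccl3, Ccl20 and Csf2 had too few reads for the test.

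Among 28 other pattern recognition receptors, of which 24 were tested, 4 were called as higher. Nlrc4 (log2 fold change 2.48, adjusted p = 0.0227, edgeR) and Naip2 (1.86, adjusted p = 0.0445) encode parts of an inflammasome that senses bacterial proteins in the cytosol. Pglyrp1, which binds peptidoglycan, had an FPKM of 302 ± 177 (SD, n = 5) in HSD17B1TG and 28.6 ± 38.7 in WT (log2 fold change 3.41, adjusted p = 0.0385, edgeR), and the mitochondrial family member Nlrx1 had a log2 fold change of 1.02 (adjusted p = 0.0234). The calls of Il1a and Tnip3 held in 10 of 10 fits that left out 1 mouse and that of Irf7 in 9, whereas Csf3 was called in 4 and the other 10 genes called as higher in 2 or 3, as Tlr2 was in 3.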

How the data were processed

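The authors isolated total RNA from uteri, sequenced it as paired-end libraries, mapped the reads to GRCm38 (HISAT2 2.0.5, Ensembl genes) and compared the groups with DESeq2. How reads were assigned to genes, and whether strand was used, is not given in the sources used here. The deposited table holds raw counts per gene, used here for all tests, and FPKM, which the authors scaled by size factor and gene length and which are used here for levels, ratios and marker sums. The authors' own fold changes and p-values were not used. Depth was 16544864 to 19451715 counts per mouse in HSD17B1TG and 14817228 to 23271988 in WT, and mitochondrial genes took 1.94% to 7.57% and 2.58% to 3.37% of counts. A floor of 3 counts corresponds to 0.129 to 0.202 CPM and covers counting error only.

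Groups follow the genotype in the labels, with 1 mouse per library. The labels name no batch or litter. Counts were tested in edgeR 4.0.16 (R 4.3.3) with filterByExpr, TMM factors and the quasi-likelihood test (p adjusted by Benjamini-Hochberg over 16993 genes) after the code was tested on simulated counts. Alternatives were RLE and upper-quartile factors, no filter, DESeq2 1.42.0, limma 3.58.1 (voom, and log2 of FPKM + 1 or + 0.1), adjusted p alone, and each mouse left out. For 6 pairs of genes, log2 ratios of FPKM + 0.1 were compared by a two-sided exact permutation test. CPM profiles used a prior count of 2. The members and all lists were chosen with earlier results of these data known. The text names the 10 members, in each pathway list the called genes or otherwise those with the 2 smallest p, and the genes with the most similar profiles for Tlr2, the called member, and Cd14, the member with the widest range over the 10 mice. Unc93b1, Ikbke, Tlr11, marker genes, and the genes singled out as too low to test were named in addition, after their values were seen. Promoters came from RefSeq (GRCm38.p6).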

Additional observations from a re-analysis of the deposited data

How the results depend on the processing

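No paired analysis was possible because the labels give no replicate numbers. The number that ends each sample title is not explained there, and the groups have 1 such number in common. Genes called as higher numbered 367 and as lower 354; DESeq2 gave 906 and 666, adjusted p alone gave 568 higher, and 189 (limma voom) and 228 (limma on log2(FPKM + 1)) were lower. Leaving out 1 mouse gave 38 to 888 genes higher and 27 to 666 lower, with the largest counts without WT4. The number of members called as higher was 2 in DESeq2 (Tlr2 and Cd14) and 2 by adjusted p alone (Tlr2 and Tlr5), and 0 to 2 with 1 mouse left out, and no member was called as lower in any fit. Tlr2 stayed called in the 7 other settings of scaling, filter and test, at adjusted p from 0.000493 to 0.0333. Pathway genes called as higher were 24 in DESeq2 and 2 to 26 with 1 mouse left out, and those called as lower were 0 in DESeq2, voom and both fits on log2 FPKM and 0 to 2 with 1 mouse left out.

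With 1 mouse left out, the difference in log2 ratio ranged from 0.42 to 0.78 for Tlr2 to Tlr1, 0.84 to 1.18 for Tlr2 to Tlr6, -0.11 to 0.68 for Cd14 to Tlr4, -0.046 to 0.41 for Cd14 to Ly96, -0.28 to 0.14 for Tlr4 to Ly96 and 0.01 to 0.47 for Tlr7 to Tlr8. The log2 fold change of Tlr7 reversed to -0.033 with upper-quartile factors and ranged from -0.18 to 0.18 with 1 mouse left out, that of Tlr9 from -0.39 to 0.081 and that of Tlr8 from -0.56 to -0.05. Causes were not tested. Tlr9 rested on 4 to 44 reads per mouse and Tlr8 on 9 to 51.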

Other observations

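The receptors Tlr11, Tlr12 and Tlr13, which mice have beside Tlr1 to Tlr9, were low, and neither of those tested, Tlr12 and Tlr13, passed the test. Tlr13, an endosomal receptor of bacterial ribosomal RNA, had an FPKM of 0.707 ± 0.280 (SD, n = 5) in HSD17B1TG and 0.893 ± 0.365 in WT (log2 fold change -0.34, adjusted p = 0.604, edgeR). Tlr12 ranged from 0 in TG1 to 0.736 in TG3 and from 0.0457 to 0.663 in WT (log2 fold change 0.00, adjusted p = 0.999, edgeR), and Tlr11, at 0.0196 to 0.447 FPKM over all mice, had too few reads for the test. The kinase Ikbke, which acts downstream of TLR3 and TLR4, was at 4.84 to 6.81 FPKM in HSD17B1TG and 2.72 to 3.66 in WT without overlap (log2 fold change 0.86, adjusted p = 0.0180, edgeR), below the fold needed for a call.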
